A study of Mus musculus with 20 samples.

Results

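Preoptic RNA of 4 pools was present as libraries in 2 sequencing sets, and the difference between the repeats of the same RNA is described here for all genes. The sample titles carry a pool number and a letter, a for the first set and b for the second, and the series text names each second-set library as a technical replicate of its first-set partner. These were 8 of the 20 libraries of the series, 4 in each set: young pools 1 and 2 (day 21) and adult pools 3 and 4 (day 70 to 150, in diestrus). All 4 pools came from female mice of the cross GnRH CRE x Floxed L10a-GFP, in which GnRH neurons carry a GFP-tagged ribosomal protein L10a. Each pool held preoptic punches of 3 to 4 mice, and the RNA was the supernatant left after the tagged ribosomes had been pulled down, labelled as GnRH depleted. Depletion was not tested. No pool of this set was from a mouse without the tag. The labels used here name no prenatal treatment for these pools. The sources used here do not say whether the second set was prepared as new libraries or the same libraries were sequenced again, nor what else differed between the sets. The p-values between sets therefore refer to the spread between 4 repeated pools, not to mice.

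In mice the preoptic area houses the majority of gonadotropin-releasing hormone (GnRH) neurons, which drive the pituitary control of the ovary, together with neurons that respond to kisspeptin and sex steroids. Poly(A) RNA sequencing from very small inputs copies the mRNA from its tail with a template-switching reaction and then amplifies the copies by PCR. Base composition, transcript length and RNA structure are known to influence how evenly transcripts pass through such steps and through the sequencing itself.

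Markers of neurons and of the hypothalamus, the labelled tissue, were present in each of the 8 libraries. Snap25, a synaptic fusion protein, stood at 2478 to 3500 counts per M (CPM), and the hypothalamic factor Nkx2-1 at 30.3 to 58.4 CPM. Glial markers were present as well, such as the myelin gene Mbp at 845 to 1989 CPM. The choroid plexus markers Ttr, Kl and Folr1 reached at most 3.36, 6.26 and 0.0985 CPM. The meningeal markers Col1a1, Dcn and Slc6a13 reached at most 9.12, 12.9 and 12.7 CPM. Of the pituitary markers, Cga had no count in any library, and Gh and Prl were at 0 in 4 and 6 of the 8 and reached at most 0.852 and 1.09 CPM. Totals were 33.0 to 41.8 M counts in the first set and 32.9 to 40.6 M in the second, and 3 counts, the limit that a count of 0 allows, corresponded to 0.0717 to 0.0912 CPM. Such limits cover counting error only. The 10 most counted genes took 3.49 to 3.62% of the counts in the first set and 4.17 to 4.37% in the second, so the groups did not overlap.

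The first question was which transcripts differed between sets for the same RNA. Of 15573 genes tested, 5042 (32.4%) passed an adjusted p of 0.05 in the quasi-likelihood test of edgeR, with the pool as a term and Benjamini-Hochberg adjustment. Of these, 2440 (15.7%) were higher in the second set and 2602 (16.7%) were lower. The median log2 fold change over all genes was 0.00, which the trimmed-mean scaling sets. The split depended on the scaling, with 2356 genes higher and 2767 lower under relative log expression factors, and 2609 and 2375 under upper-quartile scaling. Most differences were small, and among the 10299 genes with a mean of at least 3 on the log2 CPM scale, 4585 passed (44.5%), 2126 (20.6%) higher and 2459 (23.9%) lower. Only 47 of them (0.456%) were at least 2-fold higher and 1 (0.00971%) was at least 2-fold lower. That 1 gene was Nptxr. Without the pool as a term, 2292 genes passed. For 2485 genes (16%), called or not, the 4 libraries of one set did not overlap those of the other, with the second set above in 1381 (8.87%) and below in 1104 (7.09%). Of these, 2273 (14.6%) were called, 1266 higher (8.13%) and 1007 lower (6.47%). The share of called genes grew with abundance, from 2.78% below 0 on the log2 CPM scale to 65.1% above 8.

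**Figure D1:**
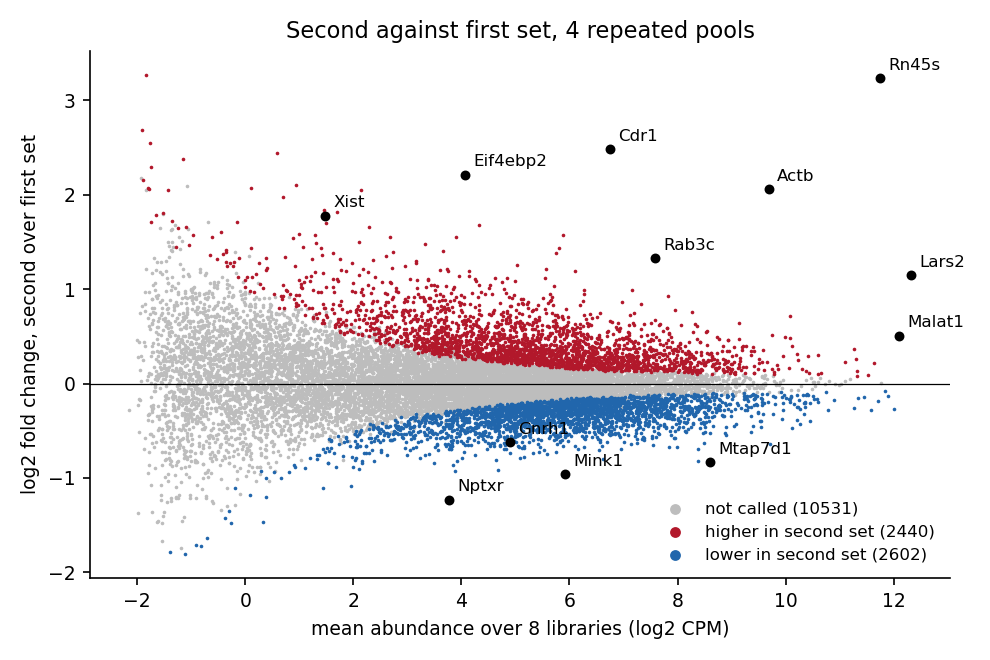
Each point is a gene, plotted by its mean abundance over the 8 libraries (log2 CPM, horizontal) and its log2 fold change of the second over the first set (vertical). Red points passed the test as higher in the second set (2440 genes), blue as lower (2602), and grey ones did not pass. Black points carry the names of genes described in the text, and the calls widen on both sides as abundance grows.

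Transcripts higher in the second set were led by Rn45s, the precursor of ribosomal RNA. Its level in pools 1 to 4 was 942, 446, 426 and 1020 CPM in the first set and 5896, 6627, 6548 and 5661 CPM in the second. Rn45s was chosen among genes with non-overlapping sets, so every second-set library lay above every first-set library. Relative to their level, the first-set libraries differed from each other by more than the second-set ones. Its log2 fold change was 3.24 (SE 0.20, adjusted p = 3.24e-08 in edgeR), or 9.43-fold. Lars2, which encodes the mitochondrial leucyl-tRNA synthetase, was higher by log2 1.15 (SE 0.03). It took 0.282 to 0.348% of the counts in the first set and 0.612 to 0.791% in the second, where it was the most counted gene in 3 of 4 libraries and Rn45s in the other. In the first set the most counted gene was Ndrg4, a neuronal gene of the N-myc downstream regulated family, in all 4 libraries.

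Actb, the cytoskeletal beta-actin gene (chr5:142903115-142906754, minus strand, GRCm38), had the smallest p among the named genes. It stood at 329, 340, 286 and 319 CPM in the first set and at 1426, 1297, 1261 and 1334 CPM in the second. The sets did not overlap, as the choice of named genes required, and within a set the 4 pools stayed close together. Its log2 fold change was 2.06 (SE 0.04, adjusted p = 3.41e-14 in edgeR), or 4.18-fold, and 14.2% of its 50-base windows also occurred in other genes, so its count is uncertain to that extent. Cdr1, the locus whose antisense circular RNA is abundant in neurons, went from 32.3 ± 3.36 to 182 ± 25.6 CPM (SD, n = 4 libraries each), a log2 change of 2.49 (SE 0.07). All of its windows were shared with another gene, and without a stated strand setting its reads and those of its antisense partner cannot be told apart. Eif4ebp2, a repressor of cap-dependent translation, went from 5.94 ± 1.22 to 27.5 ± 3.94 CPM, a log2 change of 2.21 (SE 0.12).

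Called genes with a mean of at least 3 on the log2 CPM scale and non-overlapping sets numbered 1087 higher (6.98%) and 959 lower (6.16%), and the 12 with the largest change each way are named here. The other 8 of the 12 higher genes were higher by log2 1.30 to 1.68. Dhx9 and Ddx6 are RNA helicases (log2 1.68 and 1.44), Cnot6l is a deadenylase of the CCR4-NOT complex (1.55), and Fam98b is a subunit of the tRNA ligase complex (1.30). Rab3c, a small GTPase of synaptic vesicles, stood at 125, 106, 94.3 and 115 CPM in the first set and at 305, 254, 255 and 287 CPM in the second, a log2 change of 1.33 (SE 0.05). Cdkn1b, an inhibitor of cyclin-dependent kinases, was higher by log2 1.41 (SE 0.13), and the zinc finger genes Zfp462 and Zfp871 by 1.48 (SE 0.15) and 1.38 (SE 0.07). All 4 pools moved up in each of these 12 genes, which their choice by non-overlapping sets fixed beforehand.

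Transcripts lower in the second set changed less. Nptxr, the neuronal pentraxin receptor of synapses, stood at 17.2, 22.1, 20.9 and 15.2 CPM in the first set and at 4.20, 9.83, 12.4 and 7.30 CPM in the second. The highest second-set library lay below the lowest first-set library, as the choice of named genes required. Its log2 fold change was -1.23 (SE 0.16, adjusted p = 3.35e-05 in edgeR). Mtap7d1, a gene of the microtubule-associated MAP7 family, had 570, 518, 447 and 456 CPM in the first set and 264, 299, 292 and 259 CPM in the second, a log2 change of -0.83 (SE 0.06). Its sets were also fully apart, by the same choice, and its SE was the smallest of the 12. Mink1, a kinase of the MAP4K family, was at -0.96 (SE 0.11) and Dagla, which makes the endocannabinoid 2-arachidonoylglycerol, at -0.87 (SE 0.16).

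The remaining 8 lower genes had log2 changes from -0.93 to -0.79. They were Mmp15, a membrane-type matrix metalloproteinase, Solh, a calpain family gene, Wscd2, Caskin2, a scaffold that binds the kinase CASK, Bahd1, a heterochromatin factor, Ppp1r37, a regulator of protein phosphatase 1, Tcof1, which acts in ribosomal RNA transcription, and Zc3h3, which acts in mRNA polyadenylation and export. For Zc3h3, 80.5% of the windows were shared with another gene, and for Solh 10.1%. Pool 1 had the largest difference of the 4 pools in all 12 lower genes. In Nptxr its log2 difference was -2.02, against -1.16, -0.75 and -1.05 in pools 2 to 4. Without the pool as a term Mmp15, Dagla and Wscd2 did not pass.

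**Figure D2:**
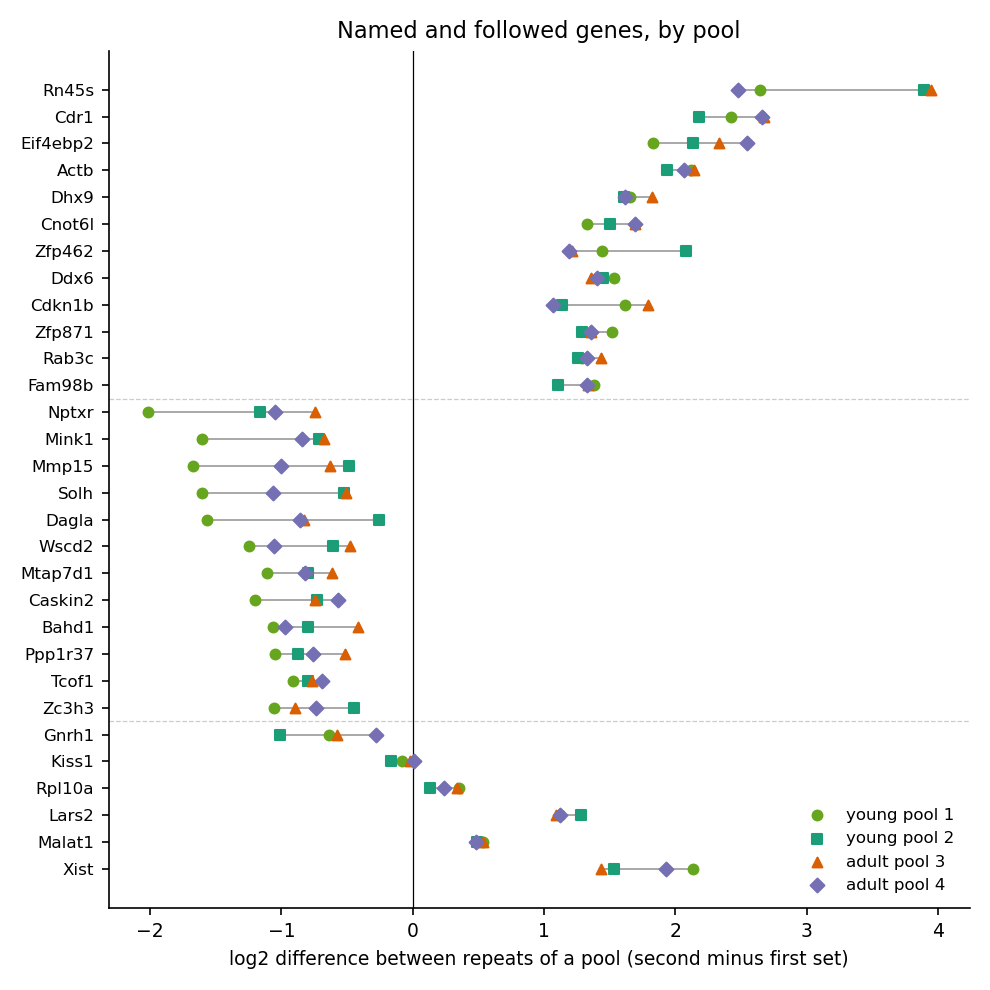
Log2 difference between the repeats of each pool (second minus first set, horizontal) for the 12 higher genes, the 12 lower genes and 6 genes followed throughout (vertical, separated by dashed lines). Each marker is a pool and the grey line spans the 4 pools. All markers of the first 12 lie right of 0 and all of the next 12 left of it, which the choice of these genes fixed. Pool 1 lies farthest left in each of the 12 lower genes.

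Gnrh1, the hormone precursor of the neurons that carry the tag, was lower in the second set in all 4 pools. It stood at 23.8, 26.8, 43.6 and 47.2 CPM in the first set and at 15.3, 13.3, 29.1 and 38.8 CPM in the second. The sets overlapped because the pools differed, but each pool moved down, and the log2 fold change was -0.62 (SE 0.10, adjusted p = 0.000258 in edgeR). In the 6 other second-set supernatants, 5 of them from mice without the tag, it stood at 17.4 to 27.9 CPM. Kiss1, which encodes kisspeptin, repeated closely: 2.21, 5.79, 20.5 and 28.3 CPM in the first set and 2.09, 5.15, 20.2 and 28.5 CPM in the second. Its log2 change of -0.06 (SE 0.11) did not pass (adjusted p = 0.742 in edgeR), and all of its windows were shared with another annotated gene. Rpl10a, whose protein is the tagged subunit, was higher by log2 0.26 (SE 0.05), and 77.7% of its windows were shared with other genes.

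Gene lists differed in their counts. These are read here against shares of all tested genes: 15.7% called higher, 16.7% lower, and 8.13% higher with non-overlapping sets. The share called in either direction grew with abundance, to 55.6% at 6 to 8 and 65.1% above 8 on the log2 CPM scale. For lists of abundant genes the shares of all tested genes are therefore too low a standard, and lists were not matched for abundance. Cytosolic ribosomal protein genes were higher as a group: 69 of 77 tested were called higher and none lower, with a median log2 change of 0.42 against 0.00 for all genes, and 53 of the 69 had non-overlapping sets. Rpl7, a protein of the large subunit, had 131, 146, 153 and 161 CPM in the first set and 222, 222, 255 and 243 CPM in the second (log2 0.67, SE 0.05). Rpl39, the small exit-tunnel protein of that subunit, had the largest change of the list (log2 0.71, SE 0.07). These genes share sequence with many processed copies, so their counts are uncertain. Nuclear genes of oxidative phosphorylation were higher in 48 of 76 and lower in 3 (Uqcrc1, Sdha and Ndufb7), with a median of 0.18. Atp5g3, a subunit of the ATP synthase rotor ring, was at 763, 737, 631 and 703 CPM in the first set and 1174, 1034, 906 and 934 CPM in the second (log2 0.51, SE 0.04).

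Long genes of synapses and cell adhesion were higher in 14 of 20 and lower in none, with a median of 0.35. Lsamp, a limbic adhesion protein, went from 23.3, 35.4, 36.1 and 35.9 CPM to 36.9, 55.4, 61.3 and 59.8 CPM (log2 0.70, SE 0.07). Nuclear long noncoding RNAs were higher in 6 of 10 and lower in 1, Peg13, with a median of 0.48. Malat1, a nuclear speckle RNA, was higher by log2 0.51 (SE 0.03) and the imprinted Rian by 0.95 (SE 0.08). Xist, which coats the inactive X chromosome, had 0.830, 1.30, 2.12 and 0.818 CPM in the first set and 3.82, 3.87, 5.83 and 3.26 CPM in the second (log2 1.78, SE 0.23). Its antisense partner Tsix was higher by log2 1.98 (SE 0.33), and the pair cannot be told apart without strand. Replication-dependent histone genes, whose mRNAs mostly lack a poly(A) tail, were higher in 7 of 16 tested and lower in none. Hist1h4d led them (log2 2.05, SE 0.22). Of 49 list genes present in the data, only 16 passed the filter. Among the 7, Hist1h1b, Hist1h4i and Hist1h2ae were scarce, with means of at most 1.12 CPM in either set. Their lowest first-set libraries were at 0.0606, 0.189 and 0.212 CPM. These 3 passed the filter only through the second set, where they were high, so their calls are no support for the list. The more abundant Hist1h1c and Hist1h2bc changed by log2 0.37 and 0.32.

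Immediate early genes, the first transcriptional response of active neurons, went the other way: 8 of 18 were lower and none higher, with a median of -0.28. Jund, a subunit of the AP-1 factor, had 1069, 1122, 928 and 945 CPM in the first set and 675, 691, 586 and 648 CPM in the second (log2 -0.64, SE 0.04). Egr3 and Arc were at -0.82 (SE 0.17) and -0.50 (SE 0.09). Reference genes often used to normalise expression were higher in 9 of 15 and lower in 2. Besides Actb, Hprt was higher by log2 0.40 (SE 0.04) and Ppia by 0.36, and Tbp did not pass (log2 0.07, adjusted p = 0.617 in edgeR).

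Among hypothalamic transcription factors 6 of 17 were higher and 5 lower. Zic2, a zinc finger factor of forebrain development, went from 3.72, 4.33, 3.16 and 2.00 CPM to 8.93, 9.78, 10.7 and 8.61 CPM (log2 1.55, SE 0.17). The oestrogen receptor gene Esr1 was higher by log2 0.50 (SE 0.13), while Nkx2-1 was lower (log2 -0.40, SE 0.07). The Esr1 differences in pools 1 to 4 were 0.0015, 1.01, 0.49 and 0.50, so pool 1 did not change, and its sets overlapped. Of 26 neuropeptide genes 9 were higher and 3 lower, the latter being Gnrh1, Vgf (log2 -0.46) and Avp (log2 -0.23). Pan-neuronal genes split evenly, with 5 higher and 5 lower of 13.

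Most cell type marker lists held both higher and lower members or few calls. No microglial gene of 12 and no haemoglobin or red cell gene of 3 passed. One of 12 endothelial and mural genes did. Astrocyte genes were lower in 3 of 12 and higher in 1, and mature oligodendrocyte genes lower in 4 and higher in 3 of 12. Oligodendrocyte precursor genes were lower in 4 and higher in none of 10, with a median of -0.17. The astrocyte filament gene Gfap had 331, 245, 157 and 199 CPM in the first set and 200, 167, 114 and 139 CPM in the second (log2 -0.56, SE 0.05), while the astrocyte glutamate transporter gene Slc1a2 was higher (log2 0.63, SE 0.08). Called markers of astrocytes and of mature oligodendrocytes thus did not all move in 1 direction. The called oligodendrocyte precursor genes, all lower, were Neu4, C1ql1, Olig1 and Sox10. Pdgfra (log2 -0.15), Bmp4 (-0.18), Gpr17 (-0.09), Olig2 (-0.03), Cspg4 (0.17) and Enpp6 (0.37) of that list did not pass, so the list as a whole did not move together.

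The other lists follow. Host genes of small nucleolar RNAs and related scaffolds were higher in 6 of 9 and lower in none (median 0.48), led by Snhg12 (log2 0.77, SE 0.14). All 3 tested genes prone to ribosomal RNA reads were higher, which were Rn45s, Lars2 and Rps29 (log2 0.42, SE 0.06). Short secreted and stress metal genes were higher in 9 and lower in 4 of 16 (median 0.19), and the metallothionein gene Mt2 was higher by log2 0.60 (SE 0.08). Heat shock and stress genes were lower in 5 and higher in 2 of 19, the higher ones being the chaperone gene Hsp90aa1 (log2 0.49) and the stress factor gene Atf4 (log2 0.49).

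Cholesterol synthesis genes were higher in 3 and lower in 3 of 14. Fibroblast, meningeal and choroid plexus genes were higher in 2 and lower in 2 of 12. Both are near the shares of all tested genes (15.7% higher and 16.7% lower) and are no result about these lists. Ependymal and tanycyte genes were lower in 2 and higher in 1 of 8, with Foxj1, a factor for motile cilia, at log2 -0.76 (SE 0.12). Interferon and class I genes were higher in 1 and lower in 1 of 14, B2m (log2 0.61, SE 0.10) and H2-D1 (log2 -0.25). Of 11 cell cycle genes only Pcna passed (log2 0.28, SE 0.07), and the 1 pituitary gene tested did not. Both tested genes of the transgene and sex list, Rpl10a and Xist, were higher.

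**Figure D3:**
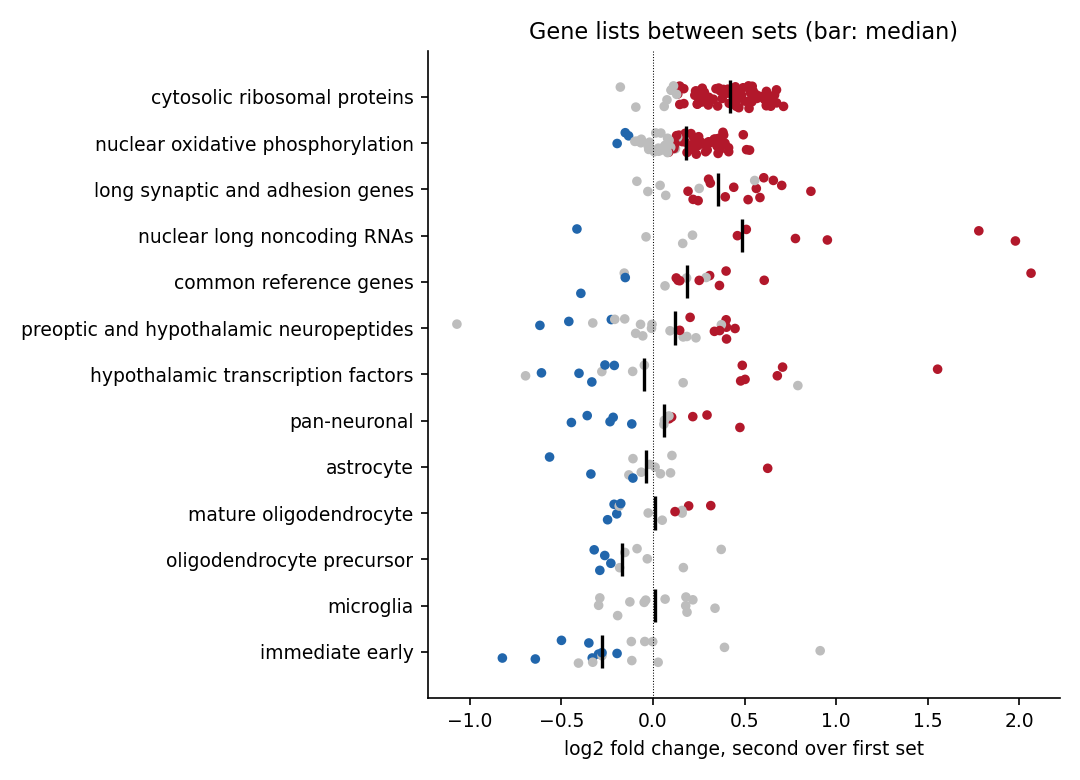
Log2 fold change of the second over the first set (horizontal) for every tested gene of 13 lists (vertical). Red points were called higher, blue lower and grey not called, and the black bar is the list's median. Ribosomal protein genes lie mostly to the right (median 0.42) and immediate early genes mostly to the left (median -0.28). Cell type lists lie around 0, apart from oligodendrocyte precursor genes (median -0.17).

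Base composition ran through these differences. Across 10216 genes with a mean of at least 3 on the log2 CPM scale and an annotated transcript, the log2 fold change between sets correlated with the GC content of the longest transcript at Spearman's rho of -0.552. This is across genes, which share the same 8 libraries, and no p is attached. The coefficient was -0.504, -0.545, -0.441 and -0.435 in pools 1 to 4 taken singly, and -0.499 for both coding and 3' untranslated GC content. With transcript length it was -0.010 over the 4 pools, from values of -0.183, 0.159, 0.072 and -0.050 in pools 1 to 4. The 1022 genes with the lowest GC content (31.0 to 42.0%) had a median log2 change of 0.22, and 51.9% of them were called higher and 1.66% lower. The 1022 genes with the highest (58.5 to 72.8%) had a median of -0.27, with 4.01% called higher and 62.2% lower.

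Coding stretches of 90 bases show the range among the named genes. They are given for the genes with the lowest GC content of the higher genes, the highest GC content of the lower genes, and Eif4ebp2, the higher gene with the highest GC content. Each is the first window inside a coding exon whose GC content is nearest that of the whole coding sequence (GENCODE M21, GRCm38), read 5' to 3' on the minus strand on which all 5 genes lie, with G and C in capitals.
Cnot6l: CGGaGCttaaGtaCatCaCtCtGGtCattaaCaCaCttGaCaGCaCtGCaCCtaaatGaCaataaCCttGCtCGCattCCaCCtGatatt
Zfp871: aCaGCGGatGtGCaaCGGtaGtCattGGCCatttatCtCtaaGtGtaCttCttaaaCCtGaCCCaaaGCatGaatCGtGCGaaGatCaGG
Eif4ebp2: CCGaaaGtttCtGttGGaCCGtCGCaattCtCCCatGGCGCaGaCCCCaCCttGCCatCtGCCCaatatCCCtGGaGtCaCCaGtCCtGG
Mtap7d1: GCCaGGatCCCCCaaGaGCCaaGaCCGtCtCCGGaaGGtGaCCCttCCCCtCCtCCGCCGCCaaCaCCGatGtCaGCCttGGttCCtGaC
Solh: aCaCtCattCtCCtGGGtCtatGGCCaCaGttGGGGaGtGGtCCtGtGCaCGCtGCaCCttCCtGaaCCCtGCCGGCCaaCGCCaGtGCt
They lie at chr5:96131148-96131237 in exon 3 of 12, chr17:32775797-32775886 in exon 4 of 4, chr10:61434995-61435084 in exon 2 of 3, chr4:126242270-126242359 in exon 2 of 17 and chr17:25965436-25965525 in exon 3 of 12. G and C made up 43.3% and 45.6% of the windows of Cnot6l and Zfp871, 57.8% of that of Eif4ebp2, and 64.4% and 61.1% of those of Mtap7d1 and Solh. Eif4ebp2 was thus higher in the second set with a GC content above the median, as were Zic2 and Hmx3, whose transcripts are 59.9% and 66.6% G and C. The median transcript GC content was 44.6% for the higher named genes other than Rn45s, which has no annotated transcript, 59.6% for the 12 lower and 50.3% for all genes with a mean of at least 3 on the log2 CPM scale.

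**Figure D4:**
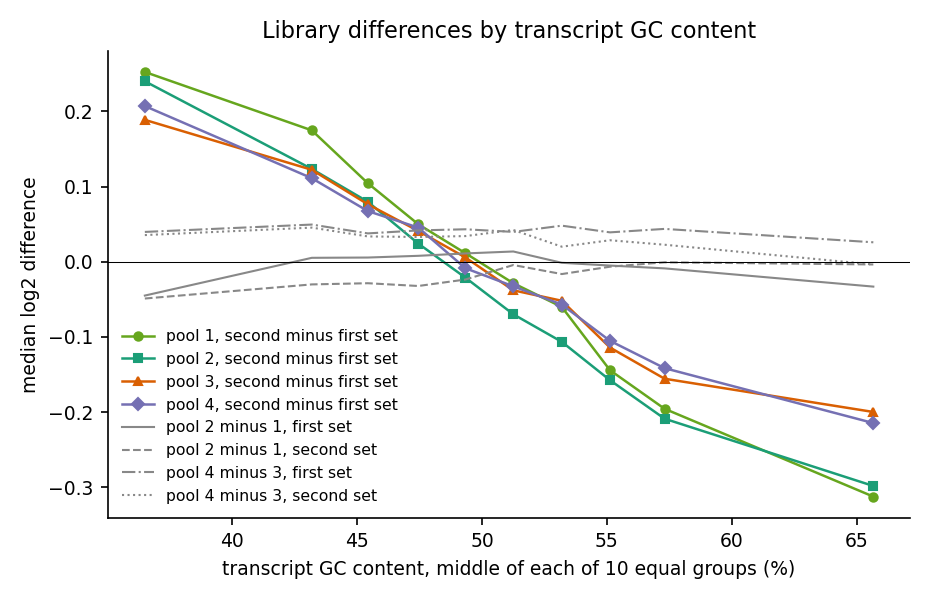
Median log2 difference (vertical) in 10 equal groups of genes ordered by transcript GC content (horizontal, percent, middle of each group). Coloured lines are the second minus the first set in each of the 4 pools, grey lines compare pools of an age within a set. The coloured lines fall from 0.19 to 0.25 in the lowest group to between -0.20 and -0.31 in the highest, and the grey lines stay between -0.05 and 0.05.

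Pools of one age compared within a set did not show this gradient: rho was 0.004 and 0.058 between the young pools and -0.028 and -0.054 between the adult pools, in the first and second set. An added fit with offsets for transcript GC content brought rho to -0.012, which such offsets do by design. It called 3814 genes, of which 2910 were also among the 5042. Named changes persisted in size to differing degrees: Actb was at log2 2.08, Cnot6l at 1.27, Mink1 at -0.77 and Mtap7d1 at -0.57. Ribosomal protein genes were called higher in 73 of 77 and oxidative phosphorylation genes in 54 of 76 in that fit. Immediate early genes were lower in 3 of 18 rather than 8. Long genes of synapses and cell adhesion were higher in 10 of 20 rather than 14, and lower in 1. Host genes of small nucleolar RNAs and related scaffolds were higher in 3 of 9 rather than 6. Oligodendrocyte precursor genes were lower in 1 of 10 rather than 4, and higher in 1.

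The 6 other supernatant libraries of the second set, from 6 further pools, were placed beside the repeats without a test. Among called genes with non-overlapping sets, their median lay on the second-set side of the midpoint for 1134 of 1266 higher genes (89.6%) and 882 of 1007 lower genes (87.6%). Rn45s took 0.712 to 1.15% of their counts, against 0.0433 to 0.102% in the first-set libraries and 0.566 to 0.678% in the second-set repeats. Actb stood at 1303 to 1822 CPM and Nptxr at 4.03 to 11.2 CPM in them. Of these pools, 5 lacked the tag (wild type, floxed allele alone or Cre alone) and 1 adult pool had the genotype of the repeated ones. Against the first set they differ in mice, and 5 of them in genotype, as well as in set, and these cannot be told apart.

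The spread between repeats was then set against that between pools. Across genes, log2 CPM of a pool correlated between sets at 0.980 to 0.984. Among first-set libraries, each second-set library correlated best with its own partner, ahead of 0.972 to 0.978 for the nearest other pool. Within the second set, however, the adult pools 3 and 4 correlated with each other at 0.9836. That was above the repeats of pools 1, 2 and 4 (0.9800, 0.9831 and 0.9808). The repeats differed by more than counting error: only 33.2 to 39.6% of genes with at least 20 counts in the pair lay within the 95% range of binomial sampling. They were therefore used as separate libraries. For genes with a mean of at least 3 on the log2 CPM scale, the SD of the log2 difference between repeats was 0.367, 0.323, 0.312 and 0.317 in pools 1 to 4. Pools of an age within a set differed by an SD of 0.358 and 0.351 (young) and 0.249 and 0.249 (adult). Repeats of the adult pools thus differed from each other by more than the adult pools did within a set.

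Much of the difference between repeats was common to the 4 pools. Between pools, the second minus first set differences correlated at 0.634 to 0.770 across genes. After the mean difference of the other 3 pools was taken off, the SD fell to 0.185 to 0.249. The biological coefficient of variation fitted by edgeR was 0.101 for repeats with set as a term and 0.187 without it, against 0.209 and 0.189 for pools of an age in the first and second set.

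**Figure D5:**
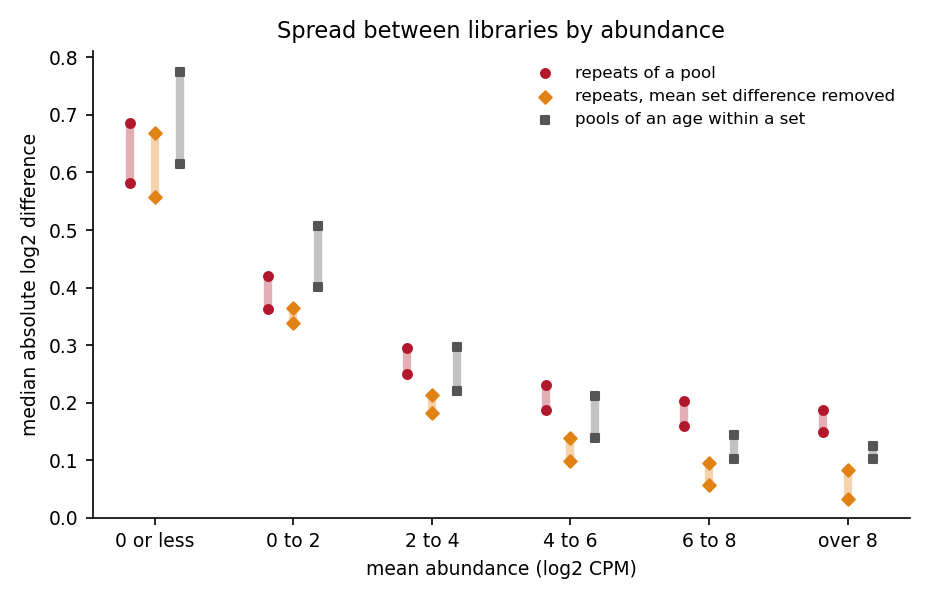
Median absolute log2 difference between libraries (vertical) by mean abundance (log2 CPM, horizontal). Bars span the 4 pools or the 4 within-set pairs: repeats of a pool in red, repeats after removal of the mean set difference in orange (scaled for a mean of 4 pools), and pools of an age within a set in grey. Above 6 on the abundance scale the red bars lie above the grey ones, at 0.149 to 0.203 against 0.102 to 0.143, and the orange ones lie below them.

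Features of single pools recurred in both sets. Acta2, a smooth muscle actin, was at 74.7 CPM in pool 3 of the first set and 94.1 CPM in the second, against 2.09 to 9.83 CPM in the other pools. Ptgds, a prostaglandin synthase of meninges and glia, was lowest in pool 2, at 31.5 and 38.4 CPM, against 273 to 734 CPM elsewhere. Igf2, a growth factor of meninges and choroid plexus, was highest in pool 1, at 62.5 and 103 CPM. In bulk RNA, fewer cells of a type and less RNA per cell cannot be told apart.

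Whether the set difference depended on age was tested directly. No gene of 15573 (0%) passed for the interaction in edgeR, with 522 at an unadjusted p under 0.05, and none passed in DESeq2 or limma voom. With pool 2 left out 299 passed, with pool 3 left out 3, with pool 4 left out 1 and with pool 1 left out 0, where the lone pool of that age is assumed to vary like the others. In the joint fit 3050 genes (19.6%) passed between sets in the young pools and 2367 (15.2%) in the adult pools. Fitted separately the order was the reverse, with 2526 in the young and 3721 in the adult pools.

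The age comparison in the same RNA had 2 pools against 2, with counts of both sets summed per pool. It called 17 of 16387 genes (0.104%), 5 higher (0.0305%) and 12 lower (0.0732%) in adults. All 17 had the same sign in both sets. Both sets hold the same RNA and make up the summed counts, so this agreement is no independent check. Il33, an alarmin cytokine made by oligodendrocytes and astrocytes, had 9.21 and 8.05 CPM in the young and 71.2 and 74.8 CPM in the adult first-set libraries, and 9.08, 6.98, 64.9 and 69.7 CPM in the second set. Its log2 change with age was 3.08 (SE 0.14, adjusted p = 0.00657 in edgeR). The splicing factor gene Cwc22 was at 2.53 in the first set and 3.17 in the second, the nuclear RNA Neat1 at 2.52 and 2.03, and the carbonic anhydrase gene Car2 at 1.11 and 1.19. The myelin gene Mobp was lower in adults, at -1.69 and -1.58, and Gal3st1, which makes the myelin lipid sulfatide, at -1.39 and -1.31. Tested in the second set alone, Neat1 (adjusted p = 0.0548 in edgeR) and Gal3st1 (adjusted p = 0.0528) did not pass. Leaving out pool 3 or pool 4 left 0 calls, while 269 and 1536 genes passed without pool 1 and pool 2. When the 8 libraries were treated as if independent, 1371 genes passed. With age and set changing together, 1052 genes passed between young first-set and adult second-set libraries and 393 between young second-set and adult first-set libraries.

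Genes found in one repeat and absent from the other were few. Per pool, 26 to 90 genes had at least 10 counts in the second set and 0 in the first, and 32 to 47 the reverse, beside 14855 to 15283 genes with at least 10 in both. Over all 4 pools, 6 genes had no count in the first set and a count in every second-set library, and 1 gene the reverse. Of the genes at 0 throughout one set, the largest sum in the other was 22 counts, for Wnt9b, all from pool 2 of the first set.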

How the data were processed

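The 8 libraries were described from the table of whole-number read counts for 19269 gene symbols that the authors deposited, without normalisation. Per the submitters' processing notes, build mm10 was used with HTSeq 0.6.1, DESeq2 1.14.1, Cuffdiff 2.1.1, Cufflinks, Bowtie2 2.2.1, TopHat2 2.0.13 and FastQC 0.11.3. The sources used here give neither their roles, nor the annotation, nor the strand setting. Per the labels' protocols, poly(A) RNA was amplified with a SMARTer v4 ultra-low kit, and duplicate handling was not given.

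Sets, pools and ages followed the titles and the series text. Counts were tested in R 4.3.3 with edgeR 4.0.16 (quasi-likelihood, trimmed-mean scaling, filterByExpr with a minimum count of 10, Benjamini-Hochberg adjustment, threshold 0.05). The sets were compared with the pool as a term (3 residual degrees of freedom), the set by age interaction with 2, and ages on counts summed per pool with 2. Pool numbers pair the libraries because the series text names the same RNA. Same-numbered pools also deviated together, with a correlation of 0.648 (young) and 0.583 (adult) across 10299 genes. Values are trimmed-mean scaled CPM, marker levels unscaled CPM, and differences between 2 libraries log2 CPM with a prior count of 2. DESeq2 1.42.0 and limma 3.58.1 (voom) were alternatives, with other scalings, filters, pools left out and offsets in 20 bins of GC content. Transcript features came from GENCODE M21 (GRCm38) for 18961 symbols (98.4%), using the longest transcript, which need not be the one expressed.

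Named genes were the 12 with the largest change each way among called genes with a mean of at least 3 on the log2 CPM scale and non-overlapping sets, clone names left out, and up to 5 each way for age. Gnrh1, Kiss1, Rpl10a, Lars2, Malat1 and Xist were always followed, and the 27 lists were read through their called members. Members and lists were chosen with earlier results of these data known. The set test and the interaction test were tried on simulated data in which the pools did not differ. The age test was not tried in this way. Some single genes are not reported here.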

Additional observations from a re-analysis of the deposited data

Results flagged for a closer look

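Of 32 measures compared over the 4 repeated pools, 1 had a pool apart from the others. The log2 difference of Lars2 was 1.28 in pool 2, against 1.09 to 1.12 in the other 3 pools. The gap to the nearest pool was 0.837 of the whole range, above Dixon's critical value for 4 values. Chance puts about 1 in 20 such groups past that value.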

How the results depend on the processing

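The count of 5042 genes between sets stayed within 1.5 times under 13 alternatives, among them other scalings, DESeq2, limma voom and the filters. It was 2292 with no replicate block, where the pairing of the repeats was not used, 2526 in the young pools alone (3721 in the adult pools alone), 3050 and 2367 for the young and adult contrasts of the joint fit, and 2306 among the 7763 genes without a shared 50-base window, an alternative chosen after seeing the data. Leaving out each pool gave 3724 to 4880. No called gene changed sign in any of these except under GC offsets, also chosen after seeing the data, where 272 did and Kiss1, not called, went to 0.12. Rpl10a did not pass in the young pools alone.

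The interaction called 0 to 299 genes with a pool left out. The age count of 17 was 28 in the first set and 11 in the second, 644 by DESeq2, 71 without a filter and 0 to 1536 with a pool left out. It was 1371 with 8 libraries as if independent, and 1052 and 393 where age and set changed together. The cause of these shifts was not tested. Genes found in one repeat alone averaged 87 per pool at a minimum of 10 counts, 299.5 at 5 and 14.25 at 20. The mean over pools of the median absolute difference between repeats was 0.244 over all genes and 0.199 at a mean of at least 3 on the log2 CPM scale.

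Of genes at or below 0 on the log2 CPM scale 2.78% passed, against 65.1% above 8. The part of depth in this was not tested.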
